A study of Arabidopsis thaliana with 20 samples.

Results

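The chloroplast genome of Arabidopsis thaliana is represented by the 88 features whose identifiers start with ATCG, out of 58844 counted genes and transposable elements. Names were given to 85 of them by their coding length, exons and order on the RefSeq chloroplast sequence of TAIR10.1, and ATCG00065, ATCG00870 and ATCG01270 are named by identifier only. By function they are 15 genes of photosystem II, 7 of photosystem I and its assembly, 6 of the cytochrome b6f complex, 6 of ATP synthase, 12 of the NADH dehydrogenase-like (NDH) complex, rbcL of Rubisco, 4 of the plastid RNA polymerase, 11 and 14 of the large and small ribosomal subunit, 9 others and the 3 without a name.

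Polyadenylated RNA was sequenced in 20 libraries, 2 for each of 5 genotypes in 2 tissues. Meiocytes, the cells that enter meiosis, were isolated from buds of stages 9 to 10 in pools of 300 to 400 masses, and seedlings of 20 days were pooled by 4 to 5 plants, all grown at 20 °C with 16 h of light. The genotypes were wild type (WT), pol2a-1 and pol2a-2, which carry mutations of POL2A, the catalytic subunit of DNA polymerase epsilon, suvh2suvh9, which lacks a pair of proteins that recruit RNA-directed DNA methylation, and pol2a-1suvh2suvh9, called the triple mutant. The genotype label of the libraries titled pol2a-2 reads pol2a-1 as well, so the allele rests on the title, and no agent was given to any group. Totals ran from 11906055 to 34451852 counts per library, and 5958 to 759897 counts in seedlings and 2470 to 9699 in meiocytes fell on chloroplast genes. The 6 meiocyte marker genes summed to 2686 to 3288 CPM (counts scaled to a common library total) in meiocyte libraries and 10.4 to 40.2 in seedlings. The 6 green leaf markers summed to 148 to 793 CPM in meiocytes and 37882 to 60826 in seedlings. The 10 tapetum markers, of the nurse cells around meiocytes, summed to 233 to 614 CPM in meiocytes and 4.11 to 41.9 in seedlings.

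Chloroplast genes are transcribed by a pair of enzyme types. A bacterial type polymerase, whose core is encoded by rpoA, rpoB, rpoC1 and rpoC2 in the chloroplast itself, reads mainly photosynthesis genes with the help of nuclear sigma factors. A phage type polymerase, encoded in the nucleus, reads the rpoB operon and accD, among others. Plastid messages carry no stable poly(A) tail, and tails added to them mark RNA for decay, so libraries made from polyadenylated RNA hold only a part of them. In such bulk samples, fewer chloroplasts, fewer cells with chloroplasts and less RNA per chloroplast cannot be told apart.

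The libraries fell into 4 sets by how the inverted repeat was counted. This repeat is present on the chloroplast at Pltd:84171-110434 and again at Pltd:128215-154478 (TAIR10.1), each 26264 bases long, and it duplicates rpl2, rpl23, ycf2, ndhB, rps7 and the part of rps12 that holds its last exons. A fragment of ycf1 (ATCG01000) lies in it too, and the unnamed ATCG00870 and ATCG01270, equal in length, have identifiers between those of repeat genes. In the seedling libraries of WT and both pol2a alleles (seedling set 1, 6 libraries) the first copies of the 7 pairs took 574 to 1838 counts per library and the second copies 306 to 685. In seedling suvh2suvh9 and triple mutant (seedling set 2, 4 libraries) they took 723 to 971 and 4 to 16. In meiocyte WT, suvh2suvh9 and triple mutant (meiocyte set 1, 6 libraries) the ranges were 0 to 19 and 0 to 7, and in meiocyte pol2a-1 and pol2a-2 (meiocyte set 2, 4 libraries) 308 to 1107 and 0 to 2. Both copies were thus counted in seedling set 1, nearly the first alone in seedling set 2 and meiocyte set 2, and almost neither in meiocyte set 1. For rps7, a small subunit gene, the sums over libraries were 493 and 412 in seedling set 1, 313 and 8 in seedling set 2, 2 and 2 in meiocyte set 1 and 552 and 0 in meiocyte set 2. Copies of this repeat are uncertain in any contrast between sets, and genotypes are compared within a set below.

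**Figure D1:**
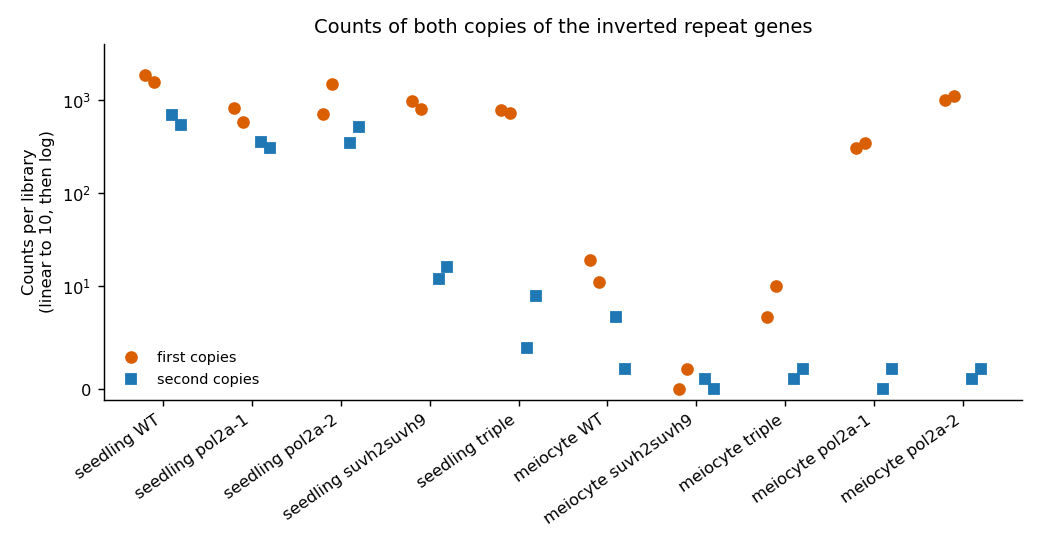
Counts per library (vertical axis, linear up to 10 and logarithmic above) of the first copies (circles) and second copies (squares) of 7 pairs of inverted repeat genes in the 10 groups. Second copies reach 306 to 685 counts only in the 6 libraries of seedling set 1, and first copies reach at most 19 in meiocyte WT, suvh2suvh9 and triple mutant.

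The edge of the repeat runs through rps19, of which 113 of 279 bases lie inside. It is shown because counted levels step there in seedling set 1. The minus strand across that edge, Pltd:84141-84200, reads as follows, with the bases inside the repeat in capitals.
rps19 junction: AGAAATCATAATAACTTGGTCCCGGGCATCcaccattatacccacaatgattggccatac
In seedling set 1 the mean level per length was 780 CPM per kb for rps19 and 51.8 for its neighbour rpl2, wholly inside the repeat. In seedling set 2 the same genes stood at 6.60 and 21.9 CPM per kb. The order of these neighbours is therefore opposite in the sets.

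The share of counts on chloroplast genes was close to alike within seedling set 1. It was 2.21% and 2.11% for WT, 2.32% and 2.42% for pol2a-1 and 2.20% and 2.19% in pol2a-2. The 95% Clopper-Pearson interval of WT replicate 1, 2.201 to 2.211%, does not reach that of replicate 2, 2.108 to 2.119%, so replicates differ by more than counting error, which is all that such intervals cover. The pol2a-1 libraries lay above both WT libraries, and an exact permutation test of 2 against 2 cannot give a p under 0.333. In seedling set 2 the suvh2suvh9 libraries held 0.0231% and 0.0262%, and the triple mutant held 0.0215% and 0.0443%, whose replicates enclose those of suvh2suvh9. Set and genotype cannot be told apart in the gap between both seedling sets.

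In meiocytes the share was 0.0420% and 0.0290% in WT, 0.0126% and 0.0200% in suvh2suvh9, and 0.0400% and 0.0332% for the triple mutant. Both suvh2suvh9 libraries lay below the WT and triple mutant libraries, which overlap. In meiocyte set 2 the share was 0.0250% and 0.0238% in pol2a-1 and 0.0751% and 0.0712% in pol2a-2, so the groups did not overlap. With 2 libraries a group none of these share differences could pass the permutation test. Mitochondrial genes took 0.0733% and 0.0620% of counts in pol2a-1 and 0.196% and 0.277% in pol2a-2, and the part of this in the chloroplast difference was not tested.

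**Figure D2:**
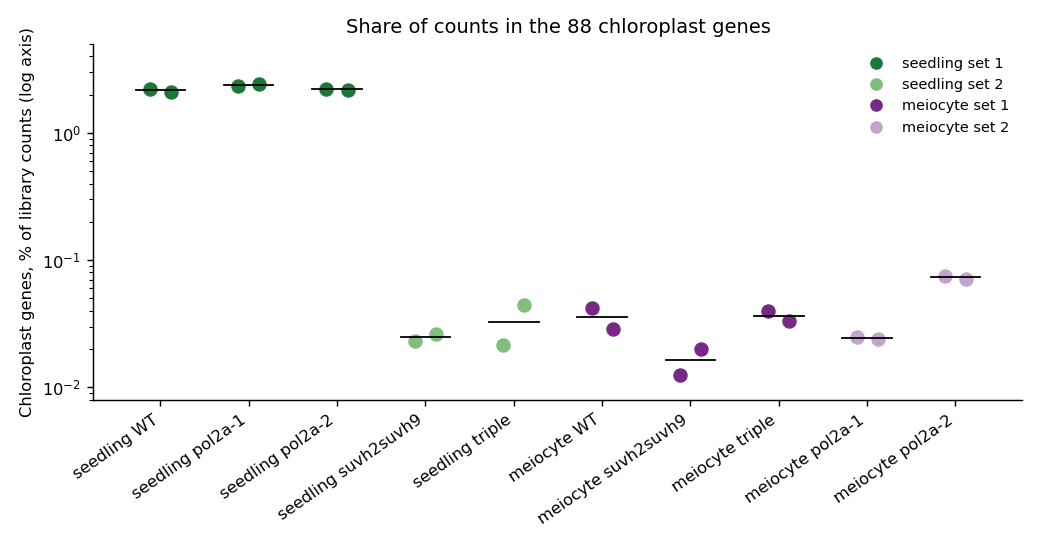
Share of library counts on the 88 chloroplast genes (percent, log axis) in each library, with the group mean as a line. The 6 libraries of seedling set 1 sit between 2.11 and 2.42% and the other 14 between 0.0126 and 0.0751%.

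The genes that filled this share differed by set. In seedling set 1, atpB, the catalytic beta subunit of the ATP synthase, took the most counts in all 6 libraries. Its level was 7679 and 7294 CPM in WT, 7700 and 9035 in pol2a-1 and 7636 and 7438 in pol2a-2. That is 33.2 to 37.4% of all chloroplast counts, and ATP synthase genes together took 48.5 to 54.0%. By counts, atpE, the epsilon subunit of the same enzyme, and ycf1, a subunit of the import machinery of the inner envelope, followed at 3101 to 4041 and 1351 to 1700 CPM. Per length the order was atpE at 8950 CPM per kb, rpl32 of the large ribosomal subunit at 6863, psbM, a small photosystem II subunit, at 5977 and atpB at 5208.

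In seedling set 2, atpB also led in 3 of 4 libraries, with suvh2suvh9 at 43.2 and 40.8 CPM and triple mutant libraries at 39.2 and 38.9. The fourth, triple mutant replicate 2, was led by psbA, which encodes the D1 protein of photosystem II. Per length, psaJ of photosystem I stood first at 48.1 CPM per kb, then rpl32 at 38.7, atpE at 31.4 and psbA at 30.95. The place of psbA rests on triple mutant replicate 2: without it the mean is 10.2 CPM per kb, 12th in rank, and the fourth gene is psbI of photosystem II at 29.7.

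In meiocytes the polymerase gene rpoB took the most counts in all libraries but 3. It was measured at 47.5 and 45.1 CPM in WT, 24.3 and 58.2 in suvh2suvh9, 29.2 and 26.8 for the triple mutant, 40.2 and 31.6 in pol2a-1 and 24.8 and 33.6 in pol2a-2. The polymerase genes as a group held 12.7 to 43.9% of chloroplast counts in meiocyte set 1 and 8.74 to 26.0% in meiocyte set 2. In seedling sets 1 and 2 they held 1.35 to 1.96% and 6.52 to 13.6%. These percents also depend on the chloroplast total. As summed CPM, the group means were 84.5 in WT meiocytes, 358.5 in WT seedlings and 30.15 in suvh2suvh9 seedlings. The top gene of the other 3 libraries was rbcL, the large subunit of Rubisco, in triple mutant replicate 1 and pol2a-2 replicate 2, and atpB in pol2a-2 replicate 1. Per length, rpl32 led both meiocyte sets at 45.1 and 49.7 CPM per kb, followed by clpP, a subunit of the stromal protease, at 22.4 and 35.5. Next came psbF of cytochrome b559 at 19.4 CPM per kb in meiocyte set 1. In meiocyte set 2 it was the first copy of rps12, at 34.3, which meiocyte set 1 hardly counted.

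The order of genes was compared between libraries. Among the 73 members outside the inverted repeat, Spearman's rho of CPM between any pair of libraries was 0.968 to 0.993 in seedling set 1, 0.868 to 0.962 in seedling set 2, 0.712 to 0.917 in meiocyte set 1 and 0.858 to 0.924 in meiocyte set 2. Between a library of seedling set 1 and one of seedling set 2 rho was 0.335 to 0.561, below any pair within either. Between libraries of both meiocyte sets it was 0.724 to 0.925, beside 0.712 to 0.924 over pairs inside these sets. Between a library of meiocyte set 1 and one of seedling set 1 it was 0.231 to 0.482, and with seedling set 2 it was 0.470 to 0.753. These values describe genes of the same libraries, which are not independent, and carry no test. Libraries of a set share their counting and may share depth.

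Between both seedling sets the gap was uneven along the chromosome. Over the 73 members outside the repeat, the ratio of the mean CPM in set 1 to that in set 2 had a median of 17.6 and ran from 0.903 for psbA to 1490 for ycf1. It was over 100 for 23 genes, from 10 to 100 for another 23, from 2 to 10 for 25 and under 2 for psbA and rbcL. Both of the last rest on triple mutant replicate 2. Without that library psbA has a ratio of 2.74 and rbcL of 4.53, no gene is under 2, the lowest is rpoB at 2.01, and 27 genes are over 100, among them all 23. The 23 genes with the largest ratios held 94.1% of the chloroplast CPM of set 1, and without them the share would be 0.133% in set 1 and 0.0196% in set 2. Of these, 18 lay in runs of neighbours, from ndhJ through ndhK and ndhC to atpE and atpB, from rpoA to rps19, and from ndhA through ndhH and rps15 to ycf1. The others were psbM, psbD, psbZ, ndhF and rpl32. Of the 48 members outside the repeat on the minus strand 20 were among them, and of the 24 on the plus strand 3, namely psbD, psbZ and rpl32. These ratios compare genotypes, library sets and counting together and have no test.

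The levels differed by steps between neighbours. In seedling set 1, rbcL stood at 24.97 CPM per kb and atpB, which starts 801 bases from it on the opposite strand, at 5208. In seedling set 2 they stood at 14.9 and 27.1, or at 5.51 and 27.4 without triple mutant replicate 2, and in meiocyte set 1 at 10.9 and 8.64. Elsewhere, petD of the cytochrome b6f complex stood at 26.95 CPM per kb and rpoA, 228 bases away on the opposite strand, at 302.6 in seedling set 1, against 2.85 and 2.45 in seedling set 2. From psbC (270 CPM per kb in seedling set 1) to psaB of photosystem I (9.58), the level was also far lower within a few genes, against 3.79 and 2.47 in seedling set 2. The kit used does not record the strand, so reads of overlapping transcripts from opposite strands cannot be separated.

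**Figure D3:**
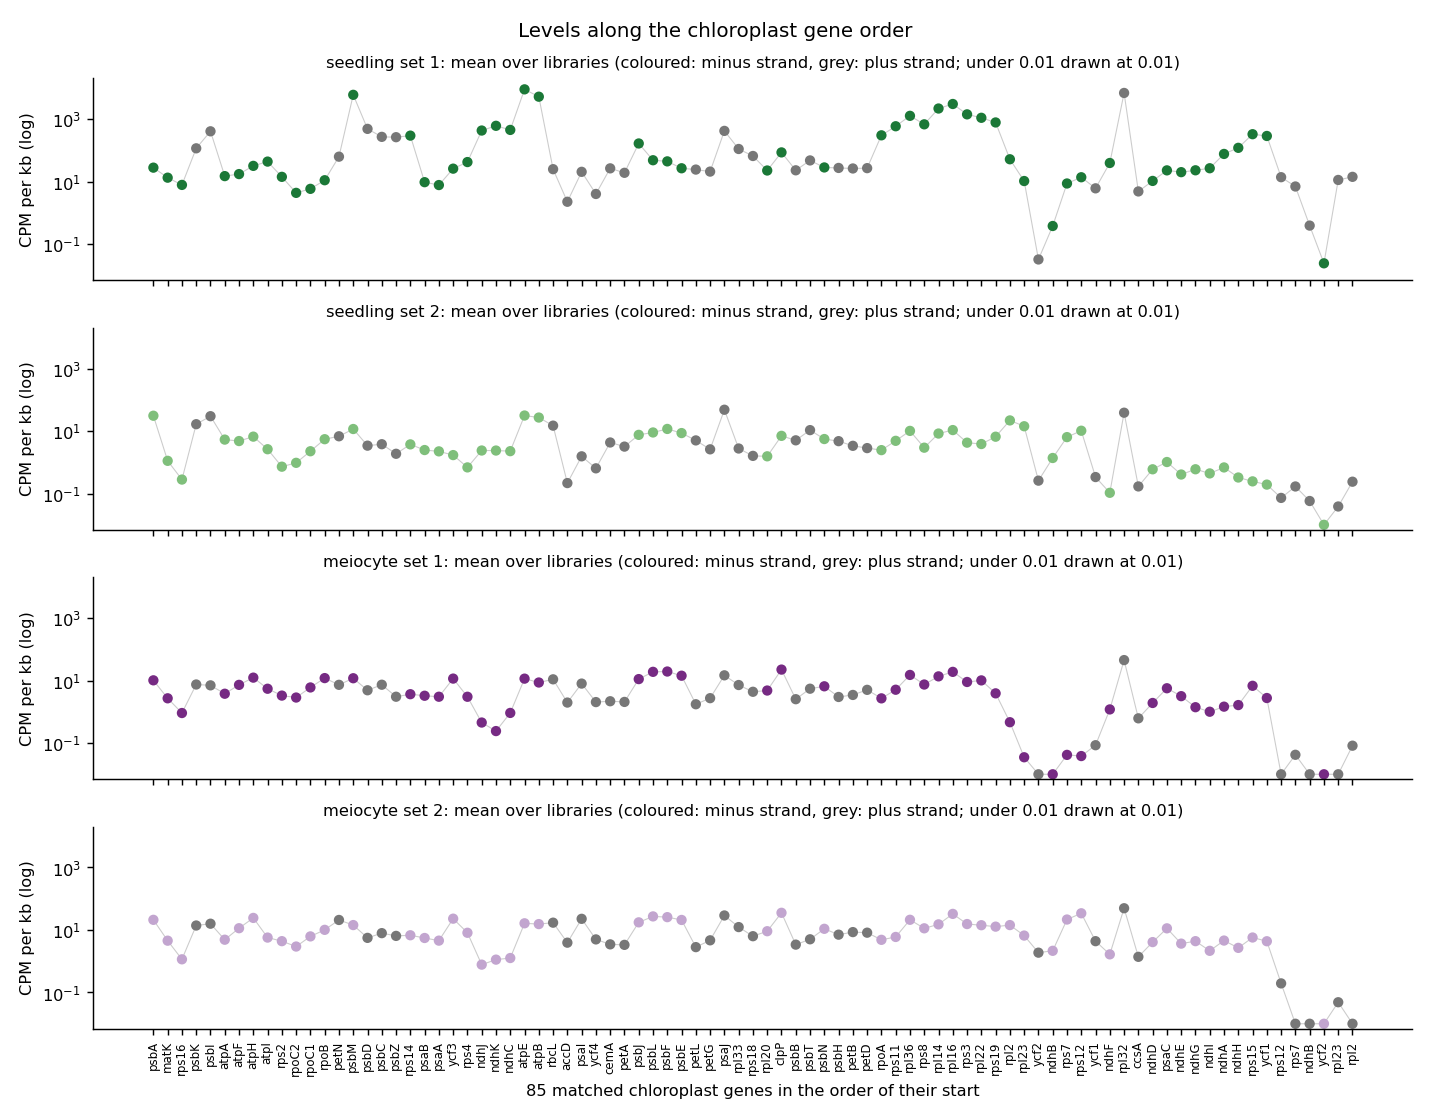
Mean CPM per kb (log axis) of the 85 named chloroplast genes in the order of their start, in seedling set 1 (6 libraries), seedling set 2 (4), meiocyte set 1 (6) and meiocyte set 2 (4). In seedling set 1, atpE and atpB (8950 and 5208 CPM per kb) rise above rbcL (24.97), while in the other sets these neighbours stand within a few fold of each other.

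Poly(A) selection can also capture a transcript by A-rich stretches of its own, so the longest runs of A in the coding strands were listed. Of the 85 named members, 7 hold at least 10 A in a row, and 31.8% of the 154 windows of 1000 bases along the chloroplast hold such a run on either strand. All 7 are printed 5′ to 3′ on the coding strand with the run in capitals and 15 bases on each side, from TAIR10.1.
rpoC2, Pltd:17911-17953, minus strand: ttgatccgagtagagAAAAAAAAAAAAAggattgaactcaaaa
rpoB, Pltd:25669-25708, minus strand: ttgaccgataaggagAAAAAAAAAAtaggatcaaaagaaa
atpB, Pltd:54086-54125, minus strand: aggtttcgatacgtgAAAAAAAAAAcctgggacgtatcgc
accD, Pltd:57357-57399, plus strand: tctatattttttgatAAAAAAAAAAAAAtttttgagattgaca
rpoA, Pltd:78080-78123, minus strand: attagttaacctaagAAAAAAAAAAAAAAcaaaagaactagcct
ycf1 fragment ATCG01000, Pltd:110400-110439, plus strand: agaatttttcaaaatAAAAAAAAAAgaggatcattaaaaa
ycf1 ATCG01130, Pltd:125853-125895, minus strand: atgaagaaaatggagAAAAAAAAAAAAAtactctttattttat
Genes with such a run were found at both ends of the scale in seedling set 1. The run of 10 A in atpB goes with 5208 CPM per kb, and the run of 13 A in accD, a subunit of acetyl-CoA carboxylase, with 2.26. Across the 72 named members outside the repeat, Spearman's rho between the longest run of A and the CPM per kb was -0.11 in seedling set 1, -0.41 in seedling set 2, -0.29 in meiocyte set 1 and -0.35 in meiocyte set 2. With CPM not divided by length the sign turned, with 0.229, 0.0178, 0.258 and 0.264 in the same order. Gene length is shared by both measures, and no test was made.

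Of the 73 members outside the repeat, rpoB differed least between the 10 groups. Its group means lay between 16.9 and 46.3 CPM, a range of 2.75-fold. The next were its operon neighbours rpoC1 with 4.15-fold and rpoC2 with 5.67-fold. The fourth core subunit, rpoA, is encoded elsewhere and stood at 278 to 337 CPM in seedling set 1 but at 1.22 to 9.55 in all other libraries. Ranges of rpoB in seedling set 1 (24.9 to 48.4 CPM) and in meiocyte set 1 (24.3 to 58.2) overlapped.

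Other single members ranged as follows. matK, a plastid splicing factor, was at 15.1 to 30.8 CPM in seedling set 1, 0.844 to 3.27 in seedling set 2 and 1.48 to 13.2 in meiocytes. petB, cytochrome b6 of its complex, was at 10.7 to 33.4 CPM in seedling set 1, 0.844 to 4.79 in seedling set 2 and 0.178 to 9.03 in meiocytes. psaA was at 11.1 to 24.6, 2.09 to 10.0 and 2.35 to 18.2 CPM, so that for it seedling set 1 and meiocytes overlapped. Of the repeat genes, the first copy of ycf2, a subunit of the import motor, was at 0.133 to 0.336 CPM in seedling set 1 and 3.96 to 25.9 in meiocyte set 2. The first copy of ndhB, an NDH subunit, was at 0.205 to 0.663 and 0.936 to 5.07 CPM in these sets. Both were lower in seedling set 1, although both copies were counted there, and this was not tested.

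**Figure D4:**
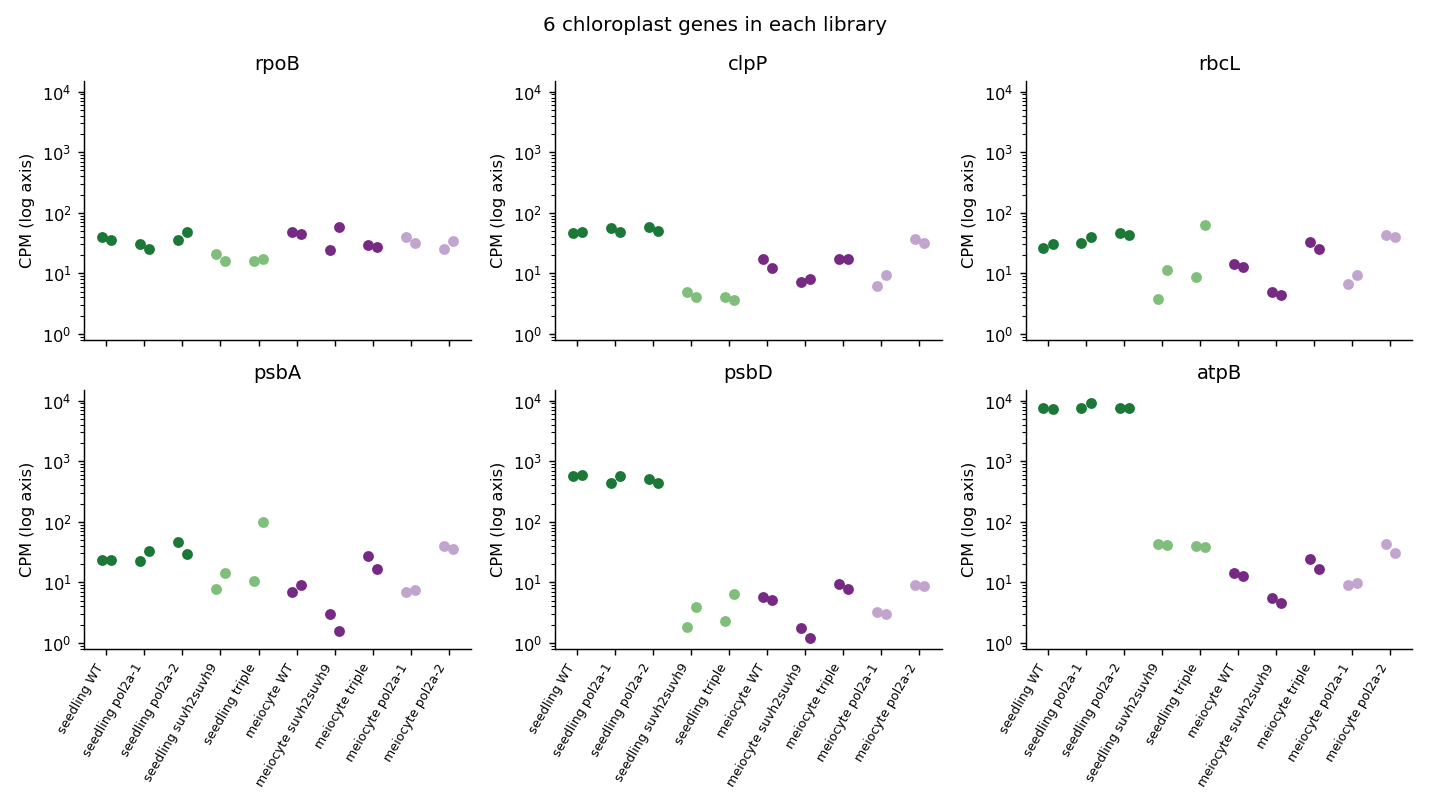
CPM (log axis) of rpoB, clpP, rbcL, psbA, psbD and atpB in each of the 20 libraries by group, coloured by set. rpoB stays between 15.8 and 58.2 CPM in all libraries, while atpB ranges from 4.51 to 9035.

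WT seedlings and WT meiocytes were compared in a fit of all 20 libraries with the quasi-likelihood test of edgeR (two-sided), and p-values were adjusted over 24418 features by the Benjamini-Hochberg method. Of 85 chloroplast genes tested, 79 were higher in seedlings and 0 lower at an adjusted p under 0.05, where 41.7% of all features were higher and 35.2% lower (76.8% either way). The median log2 difference was 3.97 for chloroplast genes and 0.20 for all features. Outside the repeat 68 of 73 were higher. The largest was ndhK, an NDH subunit, with 11.49 ± 0.61 (SE; adjusted p 1.59e-10), from 0.237 and 0.0955 CPM in meiocytes to 394 and 379 in seedlings. Next came ndhJ of the same complex at 10.34, atpE at 10.09, the ycf1 fragment at 9.82, atpB at 9.42 and the second copy of rps12 at 9.32, of which the fragment and rps12 belong to the repeat and had 0 counts in both WT meiocyte libraries, so that their fitted values depend on the prior count of the fit and are no bound. ATCG01270 and the second copies of ndhB and ycf2 had too few counts for this fit.

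By role and outside the repeat, the test called all 15 genes of photosystem II higher in seedlings, as well as all 6 of the cytochrome b6f complex, all 6 of ATP synthase, all 10 of the NDH complex and all 7 and 10 of the large and small ribosomal subunit. Of the 68 genes called outside the repeat, 56 stayed called without any 1 of the 4 WT libraries and 12 did not. Among them, psbD (log2 7.05 ± 0.42, adjusted p 2.96e-10), encoding the D2 protein, had a larger difference than psbA (1.86 ± 0.65, adjusted p 0.0158). For rbcL the difference was 1.38 ± 0.58 (adjusted p 0.0385), and leaving out any 1 of the 4 WT libraries ended that call (adjusted p 0.0721 to 0.119). The call of psbF was also lost without any 1 of them (adjusted p 0.0582 to 0.0833), and those of psbE, psbN and petG without 3 of the 4. The calls of rps16 and psaI were lost without 2 of them, and those of psbA, psbL, atpH, psaC and ndhE without 1. For psbA that was meiocyte WT replicate 1 (adjusted p 0.0989).

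The polymerase genes did not follow. rpoB stood at 39.7 and 34.9 CPM in WT seedlings and 47.5 and 45.1 in WT meiocytes, a difference of 0.00 ± 0.31 (adjusted p 1). The differences of rpoC1 (-0.03 ± 0.38, adjusted p 0.954) and rpoC2 (0.31 ± 0.33, adjusted p 0.394) did not pass the test either, nor did those of accD (-0.13 ± 0.52, adjusted p 0.837), of ycf4, a photosystem I assembly factor, or of ATCG00870. rpoA was higher by 6.78 ± 0.27 (adjusted p 6.19e-12). For mitochondrial genes, 29 of 78 were lower in seedlings, a share near the 35.2% of all features, and 1 was higher against 41.7%.

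Tissue cannot be told apart from library set in that contrast. In seedling set 2, ycf1 (ATCG01130) stood at 0.514 to 1.39 CPM, below its 33.3 and 12.65 CPM in WT meiocytes, whereas seedling set 1 had 1351 to 1700. Likewise rpoB at 15.8 to 21.2 CPM in seedling set 2 was below all 10 meiocyte libraries. The green leaf markers, nuclear genes of the same organelle, summed to 37882 to 46051 CPM in set 1 and 53486 to 60826 in set 2. Their relation to the gap of the chloroplast genes was not tested.

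Nuclear genes of chloroplast gene expression were read from a list of 27, made of 2 phage type polymerases, 6 sigma factors, 13 polymerase-associated proteins and 6 genes of RNA decay and processing. In WT seedlings against meiocytes, 18 rose and 2 fell, where 41.7% and 35.2% of all features did, with a median log2 difference of 1.97. All 6 sigma factor genes rose, from SIG3 at 1.07 ± 0.29 (adjusted p 0.00284) to SIG1 at 7.14 ± 0.58 (adjusted p 8.97e-09). The phage type polymerase gene RPOTp, of the chloroplast, rose by 1.97 ± 0.29 (adjusted p 1.21e-05), and RPOTmp, of chloroplast and mitochondrion, fell by 0.97 on the log2 scale (SE 0.32, adjusted p 0.0114).

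Within seedling set 1 no chloroplast gene passed the test among 85 tested; ATCG00870, ATCG01270 and the second copy of ycf2 had too few counts. In pol2a-1 against WT, 0 were called where 0.0269% of all 22297 features were (0.0224% higher, 0.00448% lower). At an unadjusted p under 0.05 there were 5 higher and 1 lower, and there were 0 by the DESeq2 Wald test. The median log2 difference outside the repeat was 0.14 (all features 0.02), and the genes ran from -0.62 for rpoC1 to 0.58 for rps16 with a median SE of 0.26. In pol2a-2 against WT 0 were called against 2.62% of all features, with 1 lower and 0 higher at an unadjusted p under 0.05, 0 by DESeq2 and 5 higher by edgeR without a filter on low counts. The median was 0.03, and the range was -0.66 for petL to 0.94 for petB, both of the cytochrome b6f complex. These comparisons share the WT libraries, and their p-values rest on the spread pooled over all seedling groups.

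The gene with most counts held close values. For atpB the difference from WT was 0.19 ± 0.13 (adjusted p 0.482) in pol2a-1 and -0.07 ± 0.13 (adjusted p 0.80) in pol2a-2. rbcL stood at 26.2 and 30.05 CPM in WT, 31.7 and 39.1 in pol2a-1 and 46.4 and 42.3 in pol2a-2. Both mutants lay above both WT libraries, with differences of 0.36 ± 0.70 (adjusted p 0.819) and 0.58 ± 0.70 (adjusted p 0.659). The spread behind these SEs is pooled over all seedling groups, including suvh2suvh9 (3.71 and 11.5 CPM) and the triple mutant (8.62 and 62). The tests for rbcL therefore do not measure the spread of the WT and pol2a libraries alone, and cannot decide whether rbcL differs among them. The smallest adjusted p against WT was 0.103, for cemA, an envelope protein, in pol2a-2 (-0.50 ± 0.15).

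Directly compared, pol2a-2 and pol2a-1 seedlings differed in 0 chloroplast genes (0.386% of all features, 0.233% higher and 0.152% lower). The smallest adjusted p was 0.140, for psaJ, with 79.8 and 66.2 CPM in pol2a-1 and 50.8 and 37.8 in pol2a-2 (-0.82 ± 0.20). At an unadjusted p under 0.05 there were 4 higher and 4 lower, and the DESeq2 Wald test called 0 higher and 1 lower.

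Of the 27 nuclear genes of chloroplast gene expression, 4 rose and 1 fell in pol2a-2 seedlings against WT, where 1.69% of all features rose and 0.937% fell. The risers FLN1 (0.80 ± 0.16, adjusted p 0.0341), FLN2 (0.75 ± 0.14, adjusted p 0.0267), FSD2 (0.60 ± 0.13, adjusted p 0.0447) and FSD3 (0.83 ± 0.18, adjusted p 0.0480) encode proteins attached to the plastid polymerase. The one that fell was the light and stress responsive sigma factor gene SIG5 (-0.82 ± 0.14, adjusted p 0.0200). The list's median log2 difference was 0.10 here, 0.04 in pol2a-1 against WT, 0.29 in pol2a-2 against pol2a-1 and 0.13 in the triple mutant against suvh2suvh9.

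In seedling set 2, triple mutant replicate 2 stood apart from the other 3 libraries. psbA was at 7.89 and 14.2 CPM in suvh2suvh9, and its triple mutant values were 10.3 and 99.0. rbcL was at 3.71 and 11.5 and at 8.62 and 62.0 CPM. psaA and psaB, the core of photosystem I, and psbC also had their highest value there, at 10.0, 11.8 and 11.4 CPM against 2.09 to 5.02, 1.91 to 5.40 and 1.98 to 5.10 in the other 3. atpB at 38.9 and rpoB at 17.6 CPM in that library lay within or below the range of the others.

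With both replicates, 0 of 85 chloroplast genes were called in the triple mutant against suvh2suvh9 (0.247% of all features, 0.193% higher and 0.0538% lower). An unadjusted p under 0.05 was reached by 4 higher and 3 lower genes, DESeq2 called 0, and edgeR without a filter on low counts called 11 higher. psbA differed by 2.32 ± 0.78 (adjusted p 0.268) and rbcL by 2.24 ± 0.74 (adjusted p 0.261). The median over tested chloroplast genes was 0.16. It turned to -0.24 without triple mutant replicate 2 and was 0.54, with 1 gene called, without replicate 1.

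In meiocytes 78 members were tested. The 10 with too few counts were rps16, ndhJ, petL, ATCG01270 and the second copies of rps12, rps7, ndhB, ycf2, rpl23 and rpl2, and the first copies passed through meiocyte set 2 alone.

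In meiocyte set 1, chloroplast genes were lower in suvh2suvh9 than in WT in all 70 members tested outside the repeat, but none passed the test. The median log2 difference was -1.44, against 0.01 over all features and -0.55 over mitochondrial genes. edgeR called 0 (0.00471% of all 21214 features were called, all lower). At an unadjusted p under 0.05, 39 were lower and 0 higher, the DESeq2 Wald test called 13 lower, and edgeR without a filter on low counts called 14 lower. No share of all features is given for these last counts. In 2 of the 70 genes a group had 0 counts, and the median without them was -1.42. rbcL was at 14.0 and 12.75 CPM in WT and 4.85 and 4.33 in suvh2suvh9 (-1.55 ± 0.27, adjusted p 0.115), without overlap. psbA was at 6.94 and 8.98 and at 3.01 and 1.54 (-1.80 ± 0.37, adjusted p 0.138), and rpoB, at 24.3 and 58.2 in suvh2suvh9, enclosed WT. Tapetum markers summed to 232 and 250 CPM in WT and 614 and 349 in suvh2suvh9, with 8 of 10 higher and a median log2 difference of 1.19, and their part in the chloroplast difference was not tested.

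The triple mutant had 4 chloroplast genes higher and 0 lower than suvh2suvh9 in meiocytes, where 0.0377% of all features were called, 0.0283% higher and 0.00943% lower. rbcL, at 33.0 and 25.5 CPM, was higher by 2.55 ± 0.28 (adjusted p 0.00881). psbA, at 27.4 and 16.8 CPM, was higher by 3.15 ± 0.38 (adjusted p 0.0134). psbC, which encodes the CP43 antenna protein, rose from 3.27 and 2.37 to 19.8 and 16.7 CPM (2.57 ± 0.35, adjusted p 0.0270), and psaB from 2.14 and 1.31 to 13.45 and 11.5 (2.72 ± 0.40, adjusted p 0.0498). All 4 encode photosynthesis proteins, as do many chloroplast genes, and no test by function was made.

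Of the 70 members outside the repeat 64 had a positive difference, and the median was 1.66, or 1.64 without 2 genes at 0 in suvh2suvh9. The median was 2.67 over 15 photosystem II genes, 1.94 over 7 of photosystem I and -0.30 over the 4 polymerase genes. It was 0.36 over 9 of the large and 0.52 over 11 of the small ribosomal subunit. These ribosomal medians include the first repeat copies of rpl2, rpl23, rps7 and rps12. Of these, rpl23 and rps12 had 0 counts in all libraries compared. Leaving out 1 library left 0 to 2 calls. The calls of psbC and psaB were lost without any 1 of the 4 libraries, and those of rbcL and psbA without suvh2suvh9 replicate 2 or triple mutant replicate 1. With only the libraries of this set in the fit there were 0 calls.

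Green leaf markers were also higher in the triple mutant than in suvh2suvh9. Their sum was 303 and 148 CPM in WT, 245 and 281 in suvh2suvh9, and 793 and 382 for the triple mutant. All 6 of 6 were higher in the triple mutant than in suvh2suvh9, with a median log2 difference of 1.24. No single one passed the test, and none was at 0 in all libraries of the set. Compared with WT, 6 of 6 were higher in the triple mutant with a median of 1.26, and 3 of 6 in suvh2suvh9 with 0.11. The chloroplast medians outside the repeat were 0.09 and -1.44 in these comparisons, and their relation to the markers was not tested. Tapetum markers summed to 614 and 349 CPM in suvh2suvh9, and to 476 and 561 for the triple mutant, with 5 of 10 higher. Their part in the chloroplast difference was not tested. Against WT, which both comparisons share, 0 chloroplast genes were called in the triple mutant (0.0613% of all features, 0.0424% higher and 0.0189% lower). There, 5 were higher and 5 lower before adjustment (p under 0.05), DESeq2 called 2 higher, and the median outside the repeat was 0.09.

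In meiocyte set 2, pol2a-2 had 5 chloroplast genes higher and 0 lower than pol2a-1, where 0.358% of all features were higher and 0.156% lower (0.514% either way). rbcL was at 6.66 and 9.41 CPM in pol2a-1 and at 42.5 and 40.2 in pol2a-2 (2.28 ± 0.27, adjusted p 0.00217). clpP was at 6.11 and 9.36 and at 36.2 and 32.2 (2.06 ± 0.29, adjusted p 0.00663). psbA was at 6.83 and 7.60 and at 40.3 and 35.1 (2.30 ± 0.36, adjusted p 0.0127). In all 3 genes the pol2a-2 libraries were above both pol2a-1 libraries, which adds no support, since the test had already called them.

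The other called genes were atpB, which was higher by 1.86 ± 0.29 (adjusted p 0.0129), and ycf3, an assembly factor of photosystem I, which was higher by 2.33 ± 0.40 (adjusted p 0.0200). Outside the repeat 69 of 70 members tested had a positive difference, rpoB being the exception (-0.38 ± 0.35, adjusted p 0.644), and the median was 1.80 against 0.03 over all features. By role the medians were 1.79 for ATP synthase, 1.70 for photosystem II, 1.82 for photosystem I and 0.50 for the polymerase genes. They were 1.80 for NDH and 1.93 and 1.12 for the small and large ribosomal subunit. These last 3 include first copies of repeat genes. Leaving out 1 library left 0 to 5 calls, namely 0 when pol2a-1 replicate 1 was left out, 1 for pol2a-1 replicate 2 and 3 for pol2a-2 replicate 1.

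Mitochondrial genes, the green leaf marker sum and library totals also differed between these groups, while the tapetum marker sums overlapped. Of 75 mitochondrial genes 17 were higher and 0 lower in pol2a-2, with a median of 2.29. Green leaf markers summed to 284 and 275 CPM in pol2a-1 and 383 and 366 in pol2a-2, with 5 of 6 higher, no single one past the test and none at 0 in all 4 libraries. Tapetum markers summed to 235 and 336 CPM and to 515 and 257, with 7 of 10 higher and a median log2 difference of 0.25. Totals were lower in pol2a-2, at 11932325 and 13623199 counts, than in pol2a-1, at 18019490 and 18165353. The part of these in the chloroplast difference was not tested. The 27 nuclear genes of chloroplast gene expression had a median of 0.05 here.

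**Figure D5:**
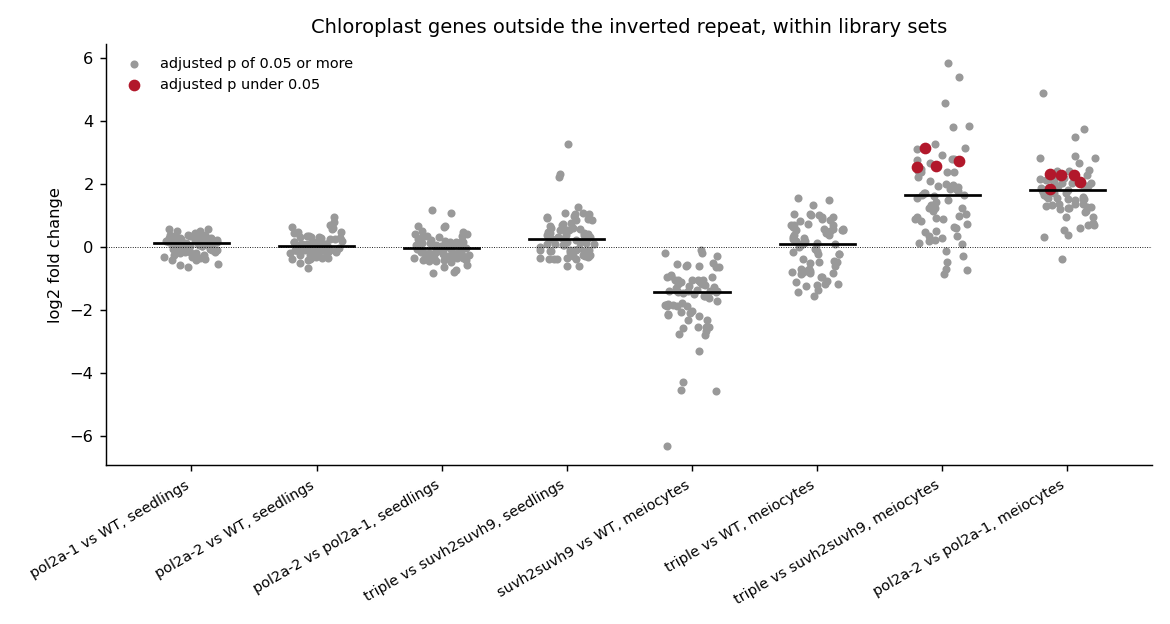
Log2 fold change (vertical axis) of each tested chloroplast gene outside the inverted repeat in 8 comparisons within library sets, with genes at an adjusted p under 0.05 in red and the median as a line. Red points appear in the triple mutant against suvh2suvh9 (4 genes) and in pol2a-2 against pol2a-1 (5 genes), both in meiocytes, where the medians are 1.66 and 1.80.

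The difference of these contrasts between tissues was tested as an interaction in the fit of 20 libraries. For pol2a-2 against pol2a-1, 5 of 85 members differed between meiocytes and seedlings, where 0.512% of all features did, and for the triple mutant against suvh2suvh9 1 of 85, where 0.0778% did. The library sets differ between the tissues in both, so that tissue and set cannot be told apart.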

How the data were processed

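The deposited values are counts per gene or transposable element with a feature length. Per the submitters' processing notes the authors used cutadapt 3.4, STAR 2.7.9a and featureCounts 2.0.0 on the TAIR10 build. The handling of strand and of reads with several hits: not given in the sources used here. Files were joined by identifier, and samples were grouped by title. Names were matched to TAIR10.1 by coding length (78), some exons (3) or another in-frame start (4).

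The 10 libraries of a tissue entered 1 edgeR 4.0.16 fit (R 4.3.3, limma 3.58.1) after filterByExpr (minimum count 10) and TMM scaling. The 10 chloroplast members left out in meiocytes and 3 in seedlings had low counts. Called means an adjusted p under 0.05 (Benjamini-Hochberg, all features). Shares of all features were given for the main and interaction tests alone. Counts at an unadjusted p or by other settings have no such share beside them. CPM divides by all counts of a library. The text names the top 3 genes by CPM and per kb of each set, up to 6 called each way per comparison and 15 genes fixed by function, besides genes at the ends of a range, chosen after their values were seen. Members, lists, sets and the interaction with tissue were chosen with earlier results of these data known. The design assumed that WT of both tissues was counted alike, which is wrong for the inverted repeat. The WT and pol2a-1 seedling test was first checked on simulated data. Seedling labels do not say whether replicates were separate cultures, so p-values may not cover the spread between cultures. They rest on the spread between replicate libraries, pooled over all groups of a fit and moderated across genes. They do not measure the spread of the compared groups alone. Alternatives were DESeq2 1.42.0 and other scalings, filters and subsets.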

Additional observations from a re-analysis of the deposited data

Results flagged for a closer look

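The effect of a genotype contrast was compared between tissues by the interaction term of a fit of all 20 libraries, a test chosen after seeing the data. For pol2a-2 against pol2a-1, 5 of 85 chloroplast genes differed between meiocytes and seedlings at an adjusted p under 0.05 (edgeR), where 0.512% of 24418 features did. The log2 effect in meiocytes minus that in seedlings was 2.25 ± 0.48 for ycf3 (adjusted p 0.0460), 2.03 ± 0.30 for atpB (adjusted p 0.00370), 2.02 ± 0.31 for clpP (adjusted p 0.00390), 1.95 ± 0.33 for rpoA (adjusted p 0.0118) and 2.79 ± 0.55 for the first copy of rps7 (adjusted p 0.0352), which lies in the inverted repeat. Outside the repeat, all 73 members had counts in each of the 4 groups, and the difference was positive for 70 of them with a median of 1.72.

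For the triple mutant against suvh2suvh9, 1 of 85 chloroplast genes differed between the tissues, where 0.0778% of all features did. The effect on atpB was larger in meiocytes by 1.99 ± 0.31 on the log2 scale (adjusted p 0.0188). In the fit of meiocytes alone, atpB was not among the genes called in this contrast. Library sets differ between the tissues in both contrasts, so tissue and set cannot be told apart. In seedlings atpB was level (39.2 and 38.9 against 43.2 and 40.8 CPM), while in meiocytes it stood at 23.9 and 16.7 CPM in the triple mutant and 5.41 and 4.51 in suvh2suvh9.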

How the results depend on the processing

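The numbers below are chloroplast genes called. The DESeq2 Wald test called 13 lower in suvh2suvh9 against WT, 2 higher in the triple mutant against WT, 15 higher in the triple mutant against suvh2suvh9 and 28 higher in pol2a-2 against pol2a-1 in meiocytes, and 1 lower in pol2a-2 against pol2a-1 in seedlings. Without a filter on low counts the same comparisons gave 14 lower, 1 higher and 2 lower, 17 higher, 28 higher, and 2 higher and 2 lower, and seedlings gave 5 higher in pol2a-2 against WT and 11 higher in the triple mutant against suvh2suvh9. With only the libraries of the set, the triple mutant against suvh2suvh9 in meiocytes gave 0. Leaving out 1 library gave 0 to 2 for that comparison, 0 to 5 for pol2a-2 against pol2a-1 in meiocytes, 0 to 1 higher and 0 to 2 lower for that pair in seedlings and 0 to 1 higher for the triple mutant against suvh2suvh9 in seedlings. The shares of all features called at these settings are not given, so these counts cannot be read as particular to chloroplast genes. The cause of the changes in number was not tested. DESeq2 size factors and scaling by nuclear genes kept each number within 1.5 times of the main one.

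The ranking of genes moved where the inverted repeat was left out. Spearman's rho went from 0.597 to 0.395 for seedling set 1 against meiocyte set 1, from 0.41 to 0.349 for seedling set 1 against meiocyte set 2 (0.471 per kb), from 0.621 to 0.683 for seedling set 2 against meiocyte set 1, from 0.727 to 0.667 for seedling set 2 against meiocyte set 2 and from 0.784 to 0.958 between both meiocyte sets.

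Replicate numbers did not pair the samples, since 2 of 10 pairs correlated over 0.1 in each tissue. With a replicate block 6 chloroplast genes were higher in pol2a-2 against pol2a-1 and 4 in the triple mutant against suvh2suvh9 in meiocytes. The share of all features called with the block is not given. In meiocytes 3 counts correspond to 0.143 to 0.251 CPM, so low members there are measured coarsely.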
